A study of Mus musculus with 15 samples.

Results

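The comparison of the smaller with the larger nonporous silica nanoparticle rested on 6 of the 15 RNA-sequencing libraries of the series, all from RAW 264.7, an established mouse macrophage line that grows in culture and takes up particles readily. They were taken by their treatment label: 3 libraries labelled SNP50 and 3 labelled SNP100. SNP50 and SNP100 are solid, spherical silica particles without pores, with nominal diameters of 50 and 100 nm. Cells were exposed for 6 h, to 25 µg/mL of SNP50 or to 50 µg/mL of SNP100. These were the highest doses at which viability tests showed no toxicity. The diameter therefore changed together with the mass dose, and the libraries of the groups carry different leading numbers in their names, whose meaning is not given in the sources used here. Size, dose and anything those numbers stand for cannot be told apart in any value given here. The labels number 3 replicates in each group but do not say whether these were separate cultures, so p-values measure only the spread between these libraries. The other 9 libraries came from cells given mesoporous (MSNP) or hollow mesoporous (HMSNP) silica, or no particles (Control).

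Macrophages take up solid particles by phagocytosis, by clathrin-coated pits and through scavenger receptors, and carry them to the lysosome, an acid compartment in which silica largely stays. The membrane wrapped around each particle is part of the cell's cholesterol store. Cells watch that store through the SREBP2 transcription factor: when sterol in the endoplasmic reticulum runs low, SREBP2 is released and the genes of cholesterol synthesis are transcribed more, and when sterol returns they are transcribed less.

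The 6 libraries held between 29369934 and 37913019 counted reads assigned to genes. All 14 of 14 macrophage marker genes were detected, with a summed level of 18496 to 19640 CPM (counts scaled to the total of the library) with SNP100 and 18760 to 19064 CPM with SNP50. None of 6 epithelial and none of 6 erythroid markers reached 10 counts over the 6 libraries, and of 8 T cell markers only 1 did. Of 9 osteoclast markers 8 did, at a summed 510.73 to 602.7 CPM with SNP100 and 447.5 to 513.32 CPM with SNP50. So did 4 of 7 dendritic cell, 2 of 6 B cell, 2 of 5 endothelial, 1 of 8 neutrophil and 1 of 7 fibroblast markers. Replicates were not repeats of one library, since the mean chi-square per gene between replicates of a group, which is about 1 for sampling noise alone, was 4.58 to 13.8.

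One library stood apart. Each library's log2 CPM was set against the mean of the 6, and genes with a mean log2 CPM above 1 were placed in 10 bins of exonic length. In SNP50 replicate 1 the median deviation went from 0.14 in the shortest bin, with a median exonic length of 1550.5 bases, to -0.14 in the longest, with 15533.5 bases. SNP50 replicates 2 and 3 were flat, with a shortest-minus-longest difference of 0.0051 and 0.0075 on the log2 scale. The SNP100 libraries leaned the other way, by -0.11, -0.13 and -0.044. As a result the median log2 fold change of SNP50 over SNP100 went from 0.10 in the shortest bin to -0.080 in the longest, and without SNP50 replicate 1 from 0.063 to -0.042. Results are therefore also given with a length offset, in which the smooth trend of each library with length is taken out of the fit, or without SNP50 replicate 1. The GC offset does the same for GC content and is given for some values only. It also moved list medians beside which it is not named. Those of NF-kB targets went from -0.0083 to -0.045, of p53 targets from 0.033 to 0.0088 and of immediate early genes from 0.0099 to -0.032. What gave this library its trend was not tested.

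**Figure D1:**
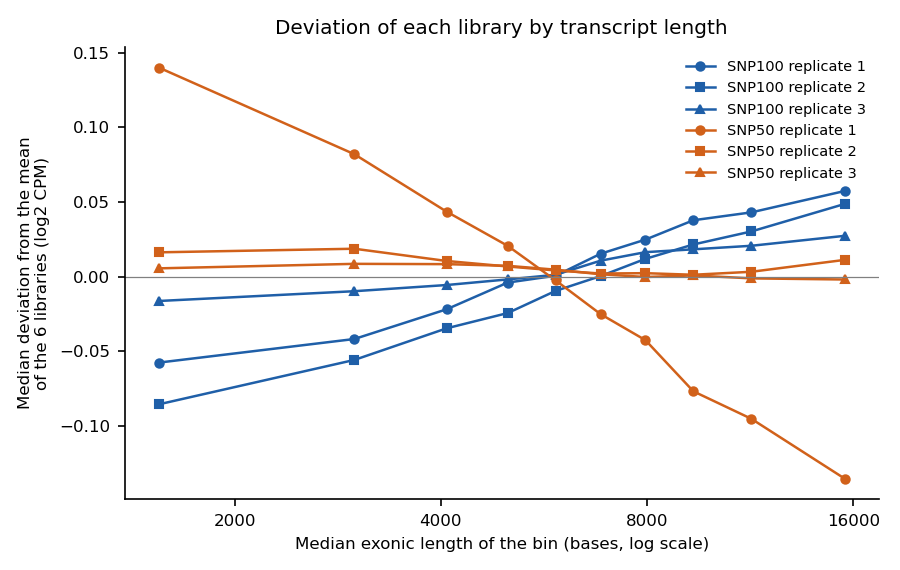
Median deviation of each library from the mean of the 6 libraries (log2 CPM, vertical axis) against the median exonic length of 10 bins of genes (bases, log scale). Lines are the 3 SNP100 libraries (blue) and the 3 SNP50 libraries (orange). SNP50 replicate 1 goes from 0.14 to -0.14, while SNP50 replicates 2 and 3 stay near 0 and the SNP100 libraries slope gently upward.

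The transcripts of cells given the 50 nm and the 100 nm particle differed by small amounts. None of 17502 genes passed an adjusted p of 0.05 in the quasi-likelihood test of edgeR, with p-values adjusted by the Benjamini-Hochberg method (share called 0%), and the smallest adjusted p was 0.0661, shared by 36 genes. A p that misses this threshold does not show that the particles act alike. At an unadjusted p under 0.05 stood 3223 genes, of which 1633 were higher in SNP50 (9.33% of those tested) and 1590 lower (9.08%). Every count of list members at this p given below stands against these shares of all genes. With the length offset 3082 genes had such a p, and 2537 did without SNP50 replicate 1, so list counts in those fits have another background. DESeq2 on the same counts called 561 genes at an adjusted p under 0.05, 311 higher in SNP50 (1.78%) and 250 lower (1.43%). These shares are of all 17502 genes, and the 8484 that got no adjusted p from DESeq2 could not be called. With the length offset DESeq2 called 527, of which 347 were among the 561, and without SNP50 replicate 1 it called 270, of which 238 were among them. With the length offset edgeR called 5 genes, namely Dusp4, H2aj, Myh7b, Hmgcs1 and Atp6v0d2. Without SNP50 replicate 1 it called 31, and among them were Hmgcs1, Cyp51, Hsd17b7 and Sc5d of the cholesterol list. DESeq2 with the 6 libraries also called all 5 and all 31, in the same direction. Both tools used the same counts, so this is not independent evidence.

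Effect sizes were bounded more tightly than the calls. Of 11565 genes with a mean of at least 1 CPM, the 95% interval of the log2 fold change lay between -1 and 1 for 11504 (99.5%) and between -0.5 and 0.5 for 10414 (90%). The median absolute log2 fold change was 0.094 and the 99th percentile 0.46, with a median standard error of 0.063. Only 85 of these genes differed by 0.5 or more on the log2 scale, and 8 by 1 or more. In 12.5% of the genes tested all 3 SNP50 libraries lay above all 3 SNP100 libraries, and in 12.6% all lay below. Over all genes the mean Euclidean distance between libraries of different groups was 59.6, against 57.4 within groups. The difference of 2.27 had p = 0.1 in the exact one-sided permutation test, which is the smallest this distance test can give with 3 against 3 libraries. It was between 1.06 and 4.01 with any one library left out (exact permutation p = 0.1 to 0.3).

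**Figure D2:**
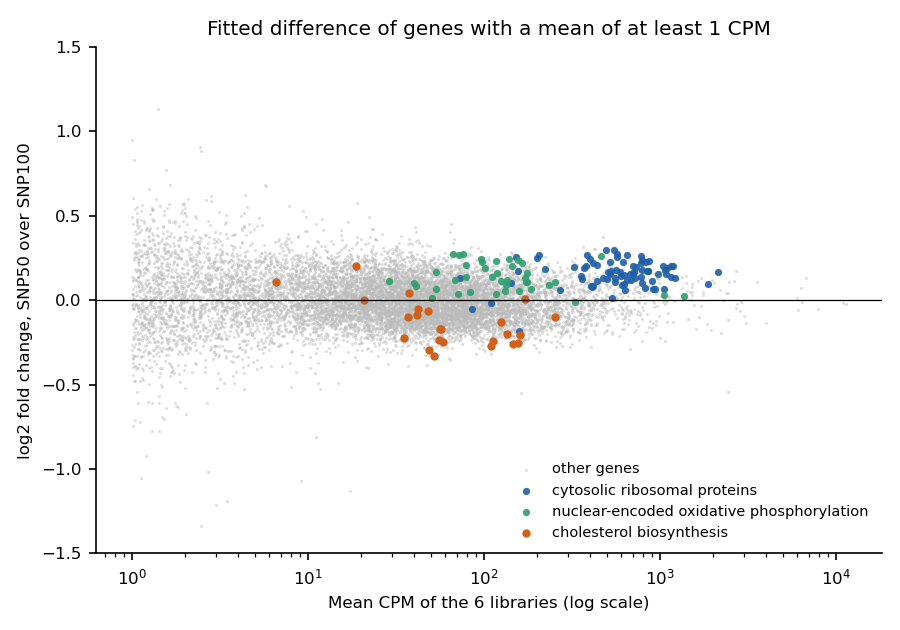
Fitted log2 fold change of SNP50 over SNP100 (vertical axis) against the mean CPM of the 6 libraries (log scale) for genes with a mean of at least 1 CPM. Points are genes, with those of 3 lists coloured. Most points lie within 0.5 of 0, cholesterol biosynthesis genes mostly below it and ribosomal protein genes mostly above.

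Most genes of the cholesterol synthesis list were lower in cells given SNP50, by small amounts, and none passed the adjusted p of 0.05 in edgeR's fit of the 6 libraries. Of 24 members tested, 14 had an unadjusted p under 0.05 and a lower value in SNP50 (58.3%, against 9.08% of all genes) and 1 a higher one. All 3 SNP50 libraries lay below all 3 SNP100 libraries for 14 members (58.3%, against 12.6%), and DESeq2 called 11 members lower (45.8%, against 1.43%). All 24 members had a mean of at least 1 CPM, as had 11565 of the 17502 genes tested. The shares of all genes thus include many genes with few reads, and for DESeq2 those without an adjusted p. The lower count was 16 with the length offset and 13 without SNP50 replicate 1. The median log2 fold change was -0.17, where that of all genes was 0.0002. It was -0.17 with the length offset, -0.14 without SNP50 replicate 1 and -0.19 to -0.14 with any one library left out. The median deviation of the list was 0.076, 0.086 and 0.076 with SNP100 and -0.13, -0.081 and -0.056 with SNP50, so that no SNP50 library reached the lowest SNP100 library. The summed level of the list was 2078.4 to 2101.4 CPM with SNP100 and 1811.4 to 1911.1 CPM with SNP50. In bulk RNA, fewer cells that use a gene and less of its RNA per cell cannot be told apart.

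The entry of the pathway gave the smallest p of the list. Hmgcs1, on chromosome 13, 120151915 to 120170470 (GRCm39), encodes the cytosolic synthase that makes HMG-CoA. It stood at 120.2, 123 and 114 CPM with SNP100 and 98.997, 97.5 and 99.967 CPM with SNP50, and the groups did not overlap. The log2 fold change came to -0.27 (95% interval -0.37 to -0.17), with an adjusted p of 0.0661 by edgeR, 0.0471 by edgeR with the length offset, 0.0445 by edgeR without SNP50 replicate 1 and 0.000674 by DESeq2. Idi1, the isomerase that supplies the activated isoprene unit, had a log2 fold change of -0.23. Pmvk, a kinase of the mevalonate steps, was the one member with an unadjusted p under 0.05 on the other side, at 17.6, 18.4 and 16.5 CPM with SNP100 and 21.3, 20.2 and 18.9 CPM with SNP50, with a log2 fold change of 0.20 (95% interval 0.053 to 0.35).

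The steps that build the sterol ring showed the same direction. Fdft1 encodes squalene synthase and had a log2 fold change of -0.24 (95% interval -0.34 to -0.13). Sqle encodes squalene epoxidase, a second control point of the pathway, and its log2 fold change was -0.21 (95% interval -0.31 to -0.11). Cyp51, the lanosterol demethylase on chromosome 5, 4123416 to 4154751, stood at 119, 123 and 125 CPM with SNP100 and 103, 103 and 104 CPM with SNP50. The 3 SNP50 values of Cyp51 lay within 1 CPM of each other and below every SNP100 value, and its log2 fold change was -0.24 (95% interval -0.34 to -0.14). Msmo1, Hsd17b7 and Sc5d encode later demethylation, reduction and desaturation enzymes. Hsd17b7 had the lowest log2 fold change of the list, -0.33 (95% interval -0.47 to -0.18), and Msmo1 had a log2 fold change of -0.20. Sc5d stood at 54.3, 53.4 and 53.7 CPM with SNP100 and 41.1, 46.3 and 44.1 CPM with SNP50, with a log2 fold change of -0.29 (95% interval -0.41 to -0.18). Fdft1 shares exon sequence with the more highly counted Ctsb on the opposite strand, Cyp51 with Akap9 and Sqle with Washc5, and the strand setting of the counting is not given in the sources used here.

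Genes that sense sterol were measured too. Insig1, a SREBP2 target that holds the SREBP escort in the endoplasmic reticulum, had a log2 fold change of -0.25 (95% interval -0.37 to -0.12). The transcript of Srebf2 itself, which encodes SREBP2, had a log2 fold change of -0.10 (95% interval -0.23 to 0.030), an interval that includes 0, and -0.055 with the length offset. The intervals of Acat2, Mvd, Nsdhl, Tm7sf2, Dhcr7, Ebp, Fdps and Mvk also include 0, and those of Lss and Stard4 lie below it. Against the nontreated controls, which both particle groups share, the log2 fold change of Hmgcs1 was 0.10 for SNP100 and -0.17 for SNP50. For Cyp51 the same values were -0.19 and -0.43. Without Control replicate 3, whose length trend is the strongest of the 15 libraries, they were 0.046 and -0.24 for Hmgcs1 and -0.12 and -0.37 for Cyp51.

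**Figure D3:**
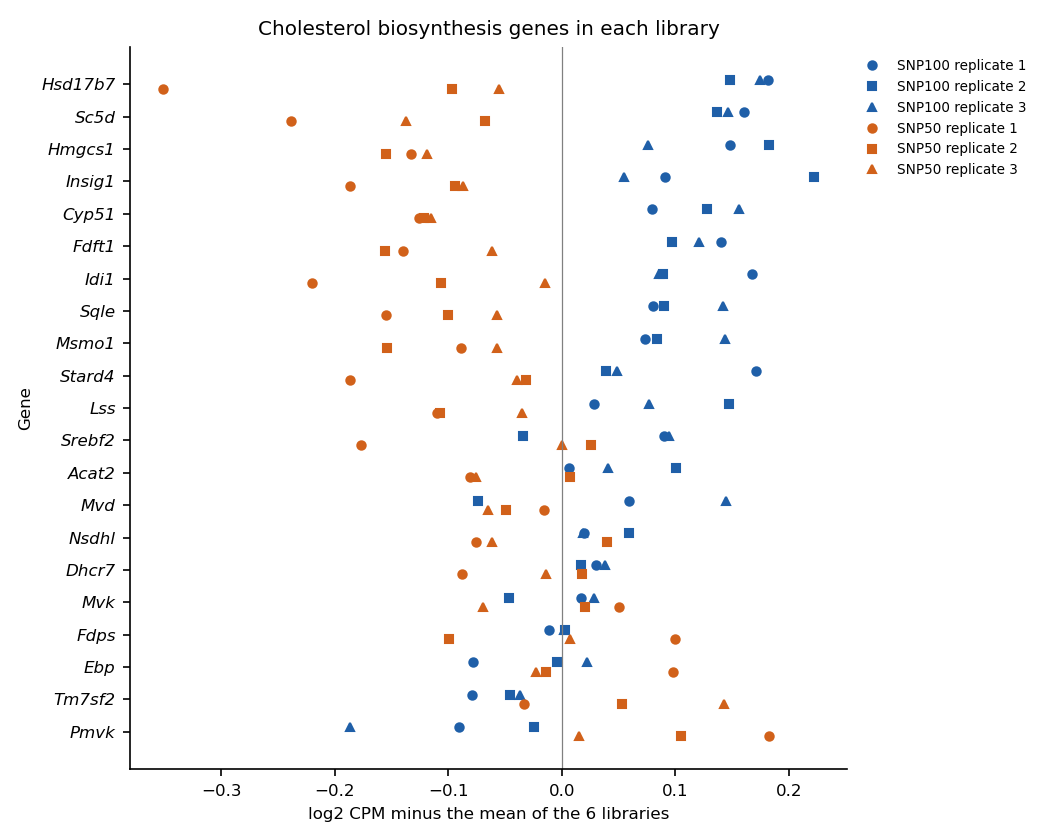
Genes of cholesterol biosynthesis, 21 of the 24 tested, ordered by fold change, with log2 CPM minus the mean of the 6 libraries on the horizontal axis. Points are single libraries, SNP100 in blue and SNP50 in orange, with a symbol for each replicate number. In 11 of these genes every orange point lies left of every blue one.

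Promoter sequence is shown for these genes because they lay lower together and several are known SREBP2 targets. SREBP2 binds sterol regulatory elements, usually beside a CCAAT box bound by the factor NF-Y. In the 250 bases upstream of the annotated canonical start (GRCm39, GENCODE M39), the letters TCACNCCAC, on either strand, occurred in 129 of 12345 tested protein-coding genes (1.04%) and in 1 of 24 members of the list, Hmgcs1. The letters CCAAT, on either strand, occurred in 36.3% of all these promoters and in 18 of the 24 (75%). The patterns can share no more than 1 base. A match is a run of letters and not a tested binding site. Most windows of the list, those of Hmgcs1, Sc5d, Hsd17b7 and Fdft1 among them, overlap an annotated exon. In the short stretches below, printed 5′ to 3′ on the strand of the gene, capitals mark the sterol regulatory element of Hmgcs1 in the first line and the CCAAT box nearest the start, here as ATTGG, in the others.
Hmgcs1, chr13:120151740-120151768, plus strand: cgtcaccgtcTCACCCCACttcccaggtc
Hmgcs1, chr13:120151887-120151911, plus strand: gagtcccgggATTGGcagaggtagc
Sc5d, chr9:42175606-42175630, minus strand: ccggctgctgATTGGccggctgcct
Hsd17b7, chr1:169796833-169796857, minus strand: ccgagtcgcgATTGGcgggcctaac
Fdft1, chr14:63415447-63415471, minus strand: ccggcttccgATTGGttaacgtttt
Cyp51 held neither pattern in this window.

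Sterol and fatty acid handling beyond synthesis gave a mixed picture. The list of lipid storage and efflux genes had a median log2 fold change of 0.025 (0.020 with the length offset), with 4 of 20 members higher in SNP50 at an unadjusted p under 0.05 (20%) and 3 lower (15%), 4 and 2 with the length offset and 3 and 1 without SNP50 replicate 1. Apoe, which encodes the apolipoprotein that carries cholesterol out of macrophages, stood at 7.84, 9.04 and 7.41 CPM with SNP100 and 12.6, 9.88 and 11.7 CPM with SNP50. Every SNP50 value of Apoe was above every SNP100 value, and its log2 fold change was 0.49 (95% interval 0.26 to 0.72), with an adjusted p of 0.0812 by edgeR and 0.00709 by DESeq2, which gave it no adjusted p with the length offset or without SNP50 replicate 1. Nr1h2, which encodes the sterol sensor LXR beta, had a log2 fold change of 0.18 (0.077 with the GC offset). Cpt1a, the gate of fatty acid import into mitochondria, had a log2 fold change of -0.15 (-0.10 with the length offset), and Cd36 is described with the scavenger receptors.

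Genes that answered to both nonporous particles were examined next. The study chose this list on these samples, so its direction is not independent evidence. Of its 29 members, 0 had an unadjusted p under 0.05 with a higher value in SNP50 and 5 with a lower one (17.2%, against 9.08% of all genes). The lower count was 9 with the length offset and 9 without SNP50 replicate 1. The median log2 fold change was -0.048, -0.080 with the length offset, -0.10 with the GC offset and -0.0046 without SNP50 replicate 3, and every 95% interval lay between -1 and 1. Among the 5 were Olr1, Cd36, Cav1 and Tbc1d2. DESeq2 called Cd36 but not Tbc1d2 (DESeq2 adjusted p = 0.198). It gave Olr1 and Cav1 no adjusted p, so these could not be called. Outside these 5 every interval includes 0, from a log2 fold change of -0.11 for Pim1, a survival kinase gene, to 0.10 for Hk3, a hexokinase gene.

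Olr1 encodes LOX-1, a scavenger receptor for oxidized LDL. It stood at 9.66, 10.2 and 9.35 CPM with SNP100 and 7.03, 7.52 and 7.14 CPM with SNP50, so that the groups did not overlap. This gave a log2 fold change of -0.43 (95% interval -0.61 to -0.25, edgeR adjusted p = 0.0782). Against the shared controls it was -1.45 for SNP100 and -1.88 for SNP50. Cd36, a receptor for oxidized lipids and long-chain fatty acids, stood at 163, 148 and 147 CPM with SNP100 and 118, 125 and 141 CPM with SNP50. On the log2 scale the difference was -0.25 (95% interval -0.39 to -0.11), with -0.69 for SNP100 and -0.94 for SNP50 against the controls. In both genes, each lower than the controls with both particles, the value of SNP50 lay further from the controls. Without Control replicate 3 the values for SNP100 and SNP50 were -1.65 and -2.10 for Olr1 and -0.73 and -0.997 for Cd36.

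Cav1, which encodes the coat protein of caveolae, was counted at only 2.11, 1.73 and 1.94 CPM with SNP100 and 1.39, 1.38 and 1.53 CPM with SNP50, with a log2 fold change of -0.43 (95% interval -0.77 to -0.078). Tbc1d2, a Rab7 GTPase-activating protein that is higher with both particles than in the controls, had a log2 fold change of -0.14 (95% interval -0.26 to -0.018). Among 20 scavenger and particle receptors tested, Msr1, the class A scavenger receptor known to bind silica, stood at 642, 632 and 634 CPM with SNP100 and 563, 598 and 603 CPM with SNP50, with a log2 fold change of -0.11 (95% interval -0.21 to -0.011), and -0.038 with the GC offset. This list had a median log2 fold change of -0.013 (-0.041 with the length offset), with 0 of 20 members higher in SNP50 at an unadjusted p under 0.05 (0%) and 4 lower (20%), 1 and 6 with the length offset and 1 and 3 without SNP50 replicate 1. Marco, the other scavenger receptor known for silica, did not reach 10 counts. The caveolar and clathrin uptake list had a median of -0.024 (0.00020 with the length offset), with 3 of 23 members higher in SNP50 at an unadjusted p under 0.05 (13%) and 6 lower (26.1%), 3 and 5 with the length offset and 3 and 4 without SNP50 replicate 1. Cltc, the clathrin heavy chain, had a log2 fold change of -0.18 (-0.12 with the length offset) and the shorter Clta, a clathrin light chain, 0.12 (0.11).

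**Figure D4:**
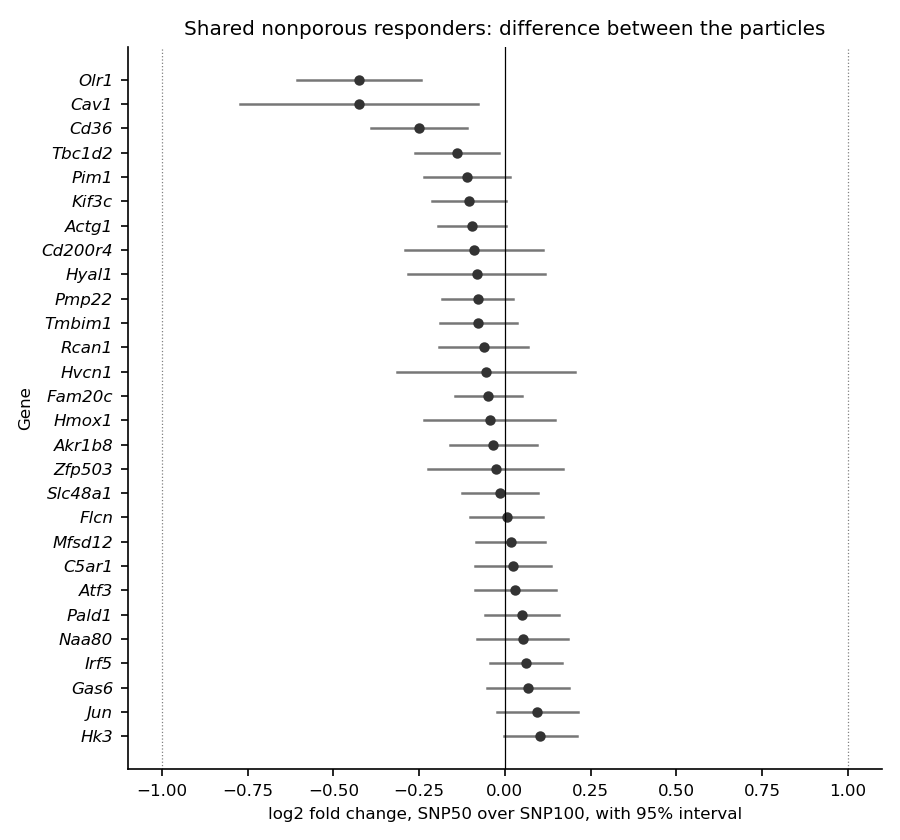
Log2 fold change of SNP50 over SNP100 for 28 listed genes that answered to both nonporous particles, with 95% intervals from edgeR. Olr1, Cav1, Cd36 and Tbc1d2 have intervals below 0, and every interval lies between -1 and 1 (dotted lines).

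Lysosomal genes leaned slightly lower in SNP50. Of 36 members, 10 had an unadjusted p under 0.05 with a lower value in SNP50 (27.8%, against 9.08%) and 2 with a higher one, and the median log2 fold change was -0.043 (-0.069 with the length offset). The lower count was 11 with the length offset and 7 without SNP50 replicate 1. Subunits of the proton pump that acidifies the lysosome were the leading members and did not share a direction. Atp6v1a, its catalytic subunit, stood at 787, 758 and 689.6 CPM with SNP100 and 556, 643 and 632 CPM with SNP50. The fitted log2 fold change was -0.29 (95% interval -0.43 to -0.15, DESeq2 adjusted p = 0.00275). Atp6v0d2, a membrane-sector subunit enriched in macrophages and osteoclasts, stood at 47.2, 42.1 and 44.6 CPM with SNP100 and 37.9, 37.1 and 37.2 CPM with SNP50. Its log2 fold change was -0.26 (95% interval -0.37 to -0.14), and it was 1 of the 5 genes that edgeR called with the length offset (adjusted p = 0.0471). Atp6v0c, the proton-carrying subunit, lay on the other side with a log2 fold change of 0.18 (95% interval 0.066 to 0.30), and 0.12 with the GC offset. Lipa, the acid lipase that frees cholesterol from LDL, had a log2 fold change of -0.23 (95% interval -0.36 to -0.093), and Npc1, which exports that cholesterol, had a log2 fold change of -0.20 (-0.13 without SNP50 replicate 1). Atp6v1a shares exon sequence with Naa50 on the opposite strand.

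The list of Rag GTPase and MiT/TFE regulators, which tie lysosomal load to mTORC1, had a median log2 fold change of -0.043 (-0.038 with the length offset), with 3 of 26 members higher in SNP50 at an unadjusted p under 0.05 (11.5%) and 5 lower (19.2%), 4 and 5 with the length offset and 3 and 5 without SNP50 replicate 1. Fnip1 and Fnip2 encode the partners of folliculin. Fnip2 stood at 373, 395 and 349 CPM with SNP100 and 283, 335 and 329.6 CPM with SNP50, with a log2 fold change of -0.24 (95% interval -0.38 to -0.094), and Fnip1 had a log2 fold change of -0.24 (95% interval -0.40 to -0.084). Tfeb, the transcription factor that drives lysosomal genes, lay higher in SNP50 at 21.7, 21.1 and 20.8 CPM with SNP100 and 24.1, 23.7 and 24.8 CPM with SNP50, with a log2 fold change of 0.19 (95% interval 0.070 to 0.31) and 0.087 with the GC offset. Lamtor2, a short transcript for a Ragulator subunit, had a log2 fold change of 0.24, and 0.13 with the length offset. Genes of lysosomal damage and the inflammasome had a median of 0.010 (-0.024 with the length offset), with 2 of 20 members higher in SNP50 at an unadjusted p under 0.05 (10%) and 4 lower (20%), 0 and 3 with the length offset and 2 and 3 without SNP50 replicate 1. Lgals8, a galectin that marks broken lysosomes, had a log2 fold change of -0.27 (95% interval -0.41 to -0.13), although it shares exon sequence with the more highly counted Heatr1.

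Ribosomal protein genes were higher in SNP50, and much of this went with transcript length. Of 81 cytosolic ribosomal protein genes, 54 had an unadjusted p under 0.05 with a higher value in SNP50 (66.7%, against 9.33% of all genes) and 1 with a lower one. The higher count among ribosomal protein genes was 40 with the length offset and 42 without SNP50 replicate 1. DESeq2 called 31 higher (38.3%, against 1.78% of all genes, those without an adjusted p included). With the length offset DESeq2 called 16 higher and 1 lower, where of all genes it called 242 higher and 285 lower. The median log2 fold change was 0.17, 0.094 with the length offset and 0.10 without SNP50 replicate 1. The median deviation of the list was -0.088, -0.12 and -0.026 with SNP100 and 0.21, 0.025 and 0.0082 with SNP50, so SNP50 replicate 1 held the highest value by far, and the other SNP50 libraries were still above every SNP100 library. Rps14 of the small subunit stood at 480.1, 484 and 503 CPM with SNP100 and 662, 567 and 577 CPM with SNP50, with a log2 fold change of 0.30 (95% interval 0.17 to 0.43) and 0.23 with the length offset. Rpl13a and Rpl27 of the large subunit had a log2 fold change of 0.26 and 0.27, and 0.18 and 0.16 with the offset. Many processed pseudogenes match these transcripts, so how reads were split between copies is uncertain.

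Nuclear genes of oxidative phosphorylation were also higher in SNP50, while those of the mitochondrial genome lay mostly lower, with overlapping groups. Of 41 nuclear-encoded members, 40 had a positive log2 fold change, 19 with an unadjusted p under 0.05 (46.3%, against 9.33%), and none of the rest passed on the other side. The higher count was 17 with the length offset and 14 without SNP50 replicate 1. The median was 0.12, 0.10 with the length offset and 0.063 without SNP50 replicate 1. Ndufb8 of complex I stood at 65.7, 63.2 and 65.6 CPM with SNP100 and 84.2, 75.7 and 74.5 CPM with SNP50, with a log2 fold change of 0.27 (95% interval 0.15 to 0.39). Cox4i1 of complex IV had a log2 fold change of 0.26 and Atp5mc1 of the ATP synthase 0.21. Of the 13 protein-coding genes of the mitochondrial genome, 12 had a negative log2 fold change and 2, mt-Co2 and mt-Atp8, an unadjusted p under 0.05 (15.4%, against 9.08%). The lower count was 5 with the length offset and 5 without SNP50 replicate 1. Their median log2 fold change was -0.14, -0.24 with the length offset, -0.065 with the GC offset and between -0.25 and -0.029 with any one library left out, and the groups overlapped in all 13, with a summed level of 12154 to 17604 CPM with SNP100 and 11396 to 16488 CPM with SNP50. Nuclear copies of mitochondrial sequence and the shared bases of mt-Atp8 and mt-Atp6 make single values uncertain.

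Genes of S phase and of mitosis lay on opposite sides of 0, by small amounts. Of 41 DNA replication genes, 10 had an unadjusted p under 0.05 with a higher value in SNP50 (24.4%, against 9.33%) and 0 with a lower one, and the median log2 fold change was 0.064 (0.035 with the length offset). The higher count was 9 with the length offset and 11 without SNP50 replicate 1. Pold1, the catalytic subunit of DNA polymerase delta, stood at 125, 127 and 126 CPM with SNP100 and 149.97, 141 and 142 CPM with SNP50, with a log2 fold change of 0.19 (95% interval 0.092 to 0.29). Its partner Pold2 had a log2 fold change of 0.18, the clamp loader subunit Rfc2 0.18 and the single-strand binding subunit Rpa2 0.17. DESeq2 called these 4, which are 9.76% of the list, against 1.78% of all genes called higher. With the length offset DESeq2 called Pold1 and Rfc2 but not Pold2 (adjusted p = 0.183) or Rpa2 (adjusted p = 0.216), whose log2 fold changes were then 0.11 and 0.10. Without SNP50 replicate 1 DESeq2 called Pold1 and Rpa2 of the 4. With the GC offset Pold1 had a log2 fold change of 0.081. Of 27 mitosis genes, 6 were lower in SNP50 with an unadjusted p under 0.05 (22.2%, against 9.08%) and 1 higher, with a median of -0.061, -0.051 with the length offset and -0.027 with the GC offset. The lower count was 8 with the length offset and 6 without SNP50 replicate 1. Anln, a cytokinesis scaffold, had a log2 fold change of -0.21 (95% interval -0.33 to -0.077), the checkpoint kinase gene Bub1 -0.17 and Ccna2, which encodes cyclin A2, -0.19. With the GC offset Bub1 had a log2 fold change of -0.095, and without SNP50 replicate 2 Ccna2 had a log2 fold change of -0.12. Replication-dependent histone transcripts lack a poly(A) tail and were scarce in these poly(A) libraries, at 27.34 to 35.838 CPM summed over 40 genes in any library. Their median log2 fold change was 0.27, 0.15 with the length offset and 0.50 without SNP100 replicate 2, with 5 of 40 members higher in SNP50 at an unadjusted p under 0.05 (12.5%) and 2 lower (5%), 5 and 2 with the length offset and 3 and 1 without SNP50 replicate 1. Nuclear and unspliced RNAs, a list that follows RNA preparation, had a median of 0.18, 0.079 without SNP50 replicate 1, with 1 of 13 members higher in SNP50 at an unadjusted p under 0.05 (7.69%) and 0 lower (0%), 2 and 0 with the length offset and 1 and 0 without SNP50 replicate 1. Their groups overlapped, with a summed level of 2520.8 to 7312.2 CPM with SNP100 and 3702.1 to 3762.6 CPM with SNP50.

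Inflammatory transcripts showed small differences. The list of NF-kB targets had a median log2 fold change of -0.0083 (-0.048 with the length offset), with 3 of 37 members higher in SNP50 at an unadjusted p under 0.05 (8.11%) and 5 lower (13.5%), 1 and 8 with the length offset and 1 and 6 without SNP50 replicate 1. Among all genes the shares were 9.33% and 9.08%. Nfkbid, which encodes a nuclear I-kappa-B protein, stood at 33.0, 38.3 and 32.5 CPM with SNP100 and 51.6, 38.9 and 49.8 CPM with SNP50. The log2 fold change came to 0.43 (95% interval 0.23 to 0.63, DESeq2 adjusted p = 0.00233). Tnfaip3, which encodes the feedback inhibitor A20, had a log2 fold change of -0.25 (95% interval -0.43 to -0.075). Il1rn, the interleukin-1 receptor antagonist, stood at 54.9, 52.4 and 55.0 CPM with SNP100 and 45.4, 47.9 and 45.6 CPM with SNP50, with a log2 fold change of -0.22 (95% interval -0.33 to -0.12). Nos2, the inducible nitric oxide synthase of activated macrophages, was counted at 1.21, 1.23 and 2.25 CPM with SNP100 and 1.05, 1.15 and 0.848 CPM with SNP50, with a log2 fold change of -0.61 (95% interval -1.16 to -0.060), and it was -0.26 without SNP100 replicate 3, which held the highest value.

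The cytokines that were also assayed in the medium were looked up one by one. Tnf stood at 46.7, 47.0 and 67.6 CPM with SNP100 and 67.8, 59.0 and 65.3 CPM with SNP50. The groups overlapped, SNP100 replicate 3 lying with the SNP50 libraries, and the log2 fold change was 0.25 (95% interval 0.011 to 0.49, edgeR adjusted p = 0.251) and 0.15 with the length offset. Ifng, Il4, Il5, Il6, Il12a and Il12b had 0 reads in each of the 6 libraries, which allows a level of up to 0.0791 to 0.102 CPM (3 reads, counting error only). Cd80, a costimulatory marker of inflammatory macrophages, stood at 3.59, 3.72 and 4.56 CPM with SNP100 and 4.14, 3.77 and 3.98 CPM with SNP50, with a log2 fold change of 0.0019 (95% interval -0.27 to 0.27), and its sign changed in 11 of 21 other settings. Cd80 shares exon sequence with the more highly counted Timmdc1.

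Interferon-stimulated genes had a median log2 fold change of 0.017 (0.016 with the length offset), with 3 of 46 members higher in SNP50 at an unadjusted p under 0.05 (6.52%) and 0 lower (0%), 1 and 0 with the length offset and 3 and 0 without SNP50 replicate 1. Both shares lay below those of all genes, 9.33% and 9.08%. Bst2, which encodes tetherin, had a log2 fold change of 0.24 (95% interval 0.11 to 0.37) and 0.13 with the length offset. Immediate early genes had a median of 0.0099 (-0.043 with the length offset), with 6 of 31 members higher in SNP50 at an unadjusted p under 0.05 (19.4%) and 2 lower (6.45%), 4 and 6 with the length offset and 6 and 2 without SNP50 replicate 1. Dusp4, a nuclear phosphatase that switches off ERK and JNK, was the leading gene of that list and had the second smallest p of all genes. On chromosome 8, 35274442 to 35287048, it stood at 73.8, 69.5 and 73.1 CPM with SNP100 and 54.1, 56.5 and 58.9 CPM with SNP50. This gave a log2 fold change of -0.35 (95% interval -0.46 to -0.24), with an adjusted p of 0.0661 by edgeR, 0.0173 by edgeR with the length offset and 6.40e-05 by DESeq2. The AP-1 subunit Jund and the early response gene Ier2 lay on the other side, with log2 fold changes of 0.25 and 0.27, of 0.15 and 0.16 with the length offset and of 0.069 and 0.16 with the GC offset.

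Of the stress programmes, the integrated stress response leaned slightly lower in SNP50, and the unfolded protein response and heat shock list had a median near 0. Integrated stress response genes, which ATF4 drives when translation is throttled, had a median log2 fold change of -0.047, with 7 of 30 lower in SNP50 at an unadjusted p under 0.05 (23.3%, against 9.08%) and 1 higher. The lower count was 11 with the length offset and 10 without SNP50 replicate 1. DESeq2 called 3 lower, or 6 with the length offset, where of all genes it called 250 and 285 lower. Aldh1l2, a mitochondrial folate enzyme, stood at 25.7, 23.9 and 23.1 CPM with SNP100 and 16.1, 19.5 and 19.6 CPM with SNP50. On the log2 scale the difference was -0.40 (95% interval -0.56 to -0.23, DESeq2 adjusted p = 0.00321), although it shares exon sequence with the more highly counted Nopchap1. The amino acid transporter genes Slc7a5 and Slc7a11 had a log2 fold change of -0.16 and -0.25, the latter -0.16 without SNP50 replicate 1. Cebpb, a transcription factor gene, had a log2 fold change of 0.25, 0.14 with the length offset and 0.064 with the GC offset. Unfolded protein response and heat shock genes had a median of -0.00093 (0.00021 with the length offset), with 4 of 25 members higher in SNP50 at an unadjusted p under 0.05 (16%) and 2 lower (8%), 5 and 3 with the length offset and 4 and 2 without SNP50 replicate 1. Sdf2l1, an endoplasmic reticulum chaperone cofactor on chromosome 16, 16948002 to 16950252, stood at 129, 124 and 133 CPM with SNP100 and 162, 156 and 152 CPM with SNP50. The fitted log2 fold change was 0.28 (95% interval 0.18 to 0.39), and 0.17 with the length offset. Hspe1, the mitochondrial co-chaperonin, had a log2 fold change of 0.23 (0.12 with the length offset), and Bag3, a cochaperone of HSP70, -0.17.

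NRF2 targets and heme handling genes had a median log2 fold change of -0.040 (-0.049 with the length offset), with 2 of 28 members higher in SNP50 at an unadjusted p under 0.05 (7.14%) and 6 lower (21.4%), 0 and 7 with the length offset and 0 and 7 without SNP50 replicate 1. Me1, a source of NADPH, had a log2 fold change of -0.21 (95% interval -0.32 to -0.091), and Bach1, a heme-sensitive repressor, -0.21 (95% interval -0.34 to -0.076). Of 8 genes of metallothioneins and zinc transport, 3 had an unadjusted p under 0.05 with a lower value (37.5%, against 9.08% of all genes). On the higher side there was 1 (12.5%, against 9.33%), and the median was -0.10 (-0.069 with the length offset). The counts on the higher and lower side were 0 and 3 with the length offset and 0 and 2 without SNP50 replicate 1. The zinc exporter gene Slc30a4 had a log2 fold change of -0.22 and the metallothionein gene Mt1 0.17, the latter 0.055 with the length offset. Targets of p53 had a median of 0.033 (0.016 with the length offset), with 3 of 28 members higher in SNP50 at an unadjusted p under 0.05 (10.7%) and 1 lower (3.57%), 4 and 2 with the length offset and 2 and 1 without SNP50 replicate 1. The shares of all genes were 9.33% and 9.08%. Phlda3, a p53-induced inhibitor of AKT, stood at 26.3, 23.5 and 25.8 CPM with SNP100 and 31.8, 30.8 and 29.6 CPM with SNP50, with a log2 fold change of 0.29 (95% interval 0.16 to 0.42) and 0.20 with the length offset. Bax, a pore-forming death gene, had a log2 fold change of 0.19, 0.086 with the length offset and 0.046 with the GC offset. Glycolysis and hypoxia genes had a median of -0.019 (-0.011 with the length offset), with 3 of 27 members higher in SNP50 at an unadjusted p under 0.05 (11.1%) and 4 lower (14.8%), 5 and 6 with the length offset and 2 and 4 without SNP50 replicate 1. Ero1a, an oxidase of the endoplasmic reticulum, had a log2 fold change of -0.23 and Pfkl, liver-type phosphofructokinase, 0.14, the latter 0.21 with the length offset and 0.077 with the GC offset.

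Adhesion genes leaned lower in SNP50. In the list of matrix, adhesion and TGF-beta genes, 8 of 24 had an unadjusted p under 0.05 with a lower value in SNP50 (33.3%, against 9.08%) and 0 with a higher one. The lower count of this list was 8 with the length offset and 7 without SNP50 replicate 1. The median log2 fold change was -0.13, -0.11 with the length offset and -0.071 without SNP50 replicate 1. Itgav, the integrin alpha V chain, stood at 471, 437 and 429 CPM with SNP100 and 328, 384 and 389 CPM with SNP50, the lowest value being that of SNP50 replicate 1. Its log2 fold change was -0.28 (95% interval -0.42 to -0.14), and -0.21 without that library. Cd44, the hyaluronan receptor, had a log2 fold change of -0.22 (95% interval -0.34 to -0.10), and Tgfbr1, the type I TGF-beta receptor, -0.21 (95% interval -0.34 to -0.077). DESeq2 called 4 of the list lower (16.7%, against 1.43% of all genes, those without an adjusted p included), Itgav, Cd44 and Tgfbr1 among them. Without SNP50 replicate 1 DESeq2 did not call Tgfbr1 (adjusted p = 0.0786). Actin cytoskeleton genes had a median of 0.010 (-0.029 with the length offset), with 6 of 26 members higher in SNP50 at an unadjusted p under 0.05 (23.1%) and 3 lower (11.5%), 3 and 4 with the length offset and 3 and 4 without SNP50 replicate 1. Vcl, which encodes the focal adhesion protein vinculin, had a log2 fold change of -0.22, and Pfn1, the actin-binding profilin, 0.14.

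**Figure D5:**
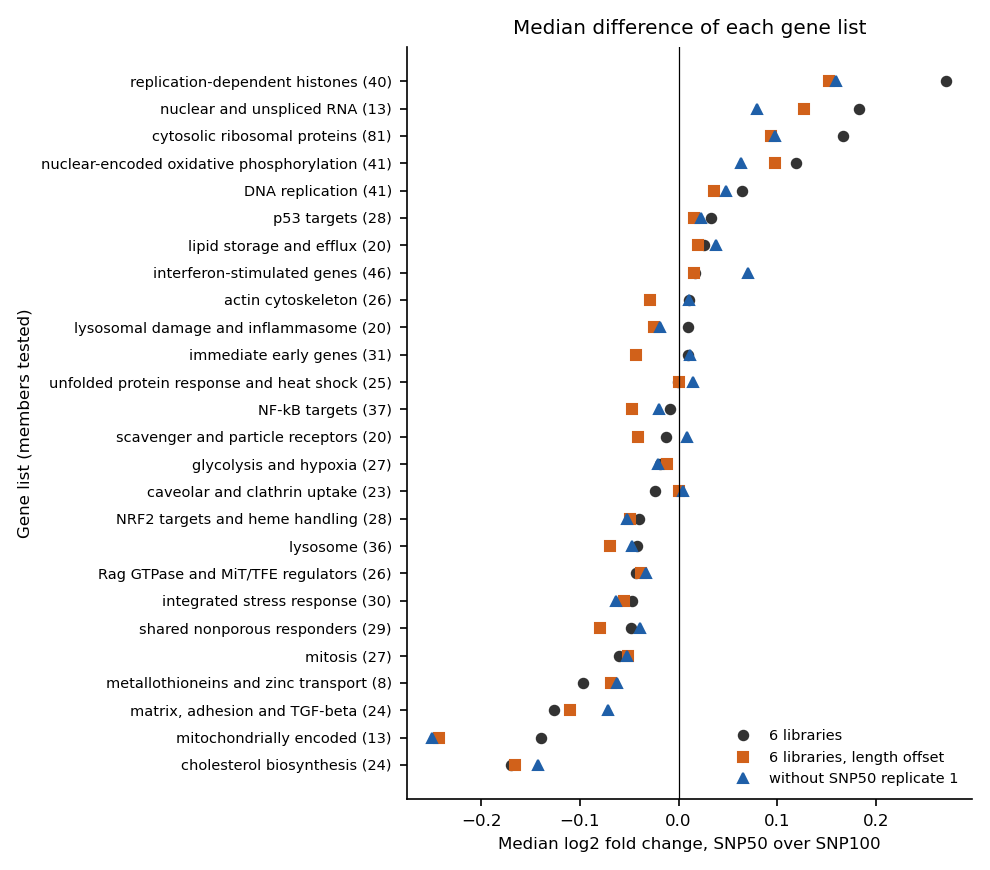
Median log2 fold change of SNP50 over SNP100 for each of the 26 gene lists (vertical axis, with the number of members tested), in the fit of 6 libraries (black circles), with the length offset (orange squares) and without SNP50 replicate 1 (blue triangles). Cholesterol biosynthesis lies at -0.17, -0.17 and -0.14, while the ribosomal protein list goes from 0.17 to 0.094 and 0.098.

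The 10 genes with the smallest p over the whole table were H2aj, Dusp4, Myh7b, Gm12191, Rgs1, Sdf2l1, Gpt2, Tma7-ps, Hmgn2-ps and Rpl9-ps6. In all 10 the groups did not overlap, which was likely beforehand in genes chosen for a small p. Of all genes tested, 12.5% lay higher in SNP50 without overlap and 12.6% lower. H2aj, on chromosome 6, 136784413 to 136787072, encodes a polyadenylated H2A histone variant. It stood at 55.9, 53.5 and 54.0 CPM with SNP100 and 83.2, 70.7 and 69.5 CPM with SNP50. The log2 fold change came to 0.45 (95% interval 0.31 to 0.59), with an adjusted p of 0.0661 by edgeR and 7.06e-06 by DESeq2, and it was 0.35 with the length offset (edgeR adjusted p = 0.0471). Rgs1, a regulator that shortens chemokine receptor signals, stood at 23.6, 26.8 and 24.8 CPM with SNP100 and 19.6, 19.3 and 17.9 CPM with SNP50, with a log2 fold change of -0.40 (95% interval -0.55 to -0.26). Gpt2, the mitochondrial alanine aminotransferase, stood at 38.8, 36.5 and 36.0 CPM with SNP100 and 30.4, 29.6 and 29.7 CPM with SNP50, with a log2 fold change of -0.31 (95% interval -0.43 to -0.20). Myh7b, a myosin heavy chain gene, stood at 15.2, 12.8 and 14.2 CPM with SNP100 and 19.7, 19.3 and 19.2 CPM with SNP50, with a log2 fold change of 0.46 (95% interval 0.30 to 0.62), but its exons overlap those of Gss and of the more highly counted Trpc4ap on the opposite strand. Gm12191, Tma7-ps, Hmgn2-ps and Rpl9-ps6 resemble other transcripts or carry pseudogene names, and how reads were shared between copies is uncertain. With the length offset Dhrs9, a retinol dehydrogenase gene, and Tatdn2, a nuclease gene, were among the 12 genes with the smallest p, with log2 fold changes of -0.35 and -0.23.

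The largest fitted differences among genes whose groups did not overlap came mostly from genes with few reads. Amt, a subunit of the glycine cleavage system, stood at 0.713, 0.739 and 0.591 CPM with SNP100 and 1.5951, 1.24 and 1.14 CPM with SNP50, with a log2 fold change of 0.95 (95% interval 0.48 to 1.42). Gm63662, a long noncoding RNA, stood at 1.56, 1.73 and 1.80 CPM with SNP100 and 3.83, 2.94 and 2.80 CPM with SNP50, with a log2 fold change of 0.91 (95% interval 0.57 to 1.25). Lrrc17, Tmod4 and Mir142hg, the host of the haematopoietic miR-142, had a log2 fold change of 0.60, 0.59 and 0.58. Mir142hg had more reads, at a mean of 15.1 CPM with SNP100 and 22.6 CPM with SNP50. On the lower side H2-Q1, an MHC class I gene with close relatives in the same cluster, stood at 5.17, 2.35 and 3.29 CPM with SNP100 and 2.07, 1.84 and 1.43 CPM with SNP50, with a log2 fold change of -1.02 (95% interval -1.55 to -0.49) and -0.66 without SNP100 replicate 1. The noncoding 1700006J14Rik, whose exons overlap the far more highly counted Hmga2, had a log2 fold change of -0.69. Among genes of at least 1 CPM with an unadjusted p under 0.05 and no overlap, 8 of the 12 lowest were processed pseudogenes. These 8 include Gm4900, a transcribed one. Of all 17502 genes tested 1648 were processed pseudogenes, not counting transcribed ones. Of these 1648, 112 were lower in SNP50 at an unadjusted p under 0.05, where of all genes tested 1590 were (9.08%). The share of pseudogenes among all genes that meet the same conditions was not counted. Clta, Npc1, Cox4i1, Rfc2, Ccna2, Hspe1, Cebpb, Vcl and Lrrc17, described above, also share exon sequence with an expressed gene on the opposite strand.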

How the data were processed

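Poly(A) RNA of RAW 264.7 cells was made into directional libraries and sequenced in pairs. The authors deposited raw counts per gene and library, mapped to GRCm39. The submitters' processing notes name cutadapt 1.16, STAR 2.7.9a and featureCounts 1.6.3. The annotation release and the strand setting of the counting are not given in the sources used here, so reads of genes that overlap on opposite strands cannot be told apart. Particle sizes and doses follow the study's methods, and groups follow the sample labels.

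Of 57186 genes in the table, 17502 with at least 10 counts summed over the 6 SNP50 and SNP100 libraries were tested, and they hold 99.9892% of the counts. The quasi-likelihood test of edgeR 4.0.16 (R 4.3.3) was fitted to these 6 libraries alone with TMM normalization, and a gene was called at a Benjamini-Hochberg adjusted p under 0.05. Log2 fold changes are SNP50 over SNP100, with 95% intervals from the edgeR fit. DESeq2 1.42.0 and limma 3.58.1 (voom with library weights) were alternatives, and 8484 genes to which DESeq2 gave no adjusted p were left missing. The length offset is a lowess curve (span 0.3) of each library's deviation on log exonic length (GENCODE M39, 56630 identifiers matched), given to the fit as an offset. Library medians and distances use log2 CPM with a prior count of 2. The statistics were tested on simulated data.

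The comparison and the gene lists were chosen with earlier results of these data known. Named genes are the 10 with the smallest p, the 12 highest and 12 lowest log2 fold changes among genes of at least 1 CPM with an unadjusted p under 0.05 and groups that do not overlap, up to 4 members of each list by p, the 12 with the smallest p with the length offset, the list of genes shared by both nonporous particles, and the assayed cytokines. Not every one of them is named, 4 genes are not reported here, and some further members of the cholesterol list are named for their step in the pathway. The alternatives were another normalization (RLE), other filters, other sets of libraries in the model, length and GC offsets, a replicate block and each library left out. DESeq2 with the length offset and DESeq2 without SNP50 replicate 1 were chosen after seeing the data.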

Additional observations from a re-analysis of the deposited data

How the results depend on the processing

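The count of called genes varied with the tool, the filter, the offset and the libraries in the fit. It was 0 in edgeR's fit of the 6 libraries, and also with RLE normalization, with edgeR's own filter on 13677 genes, with all 15 libraries in the model and with bias-adjusted quasi-likelihood. It was 5 with the length offset and 1 with the GC offset. With the 12 treated libraries in the model it was 624, and with all libraries but Control replicate 3 it was 106. Without a filter on low counts it was 1161 of 24412 genes, and each of the called genes had 10 counts or more. It was 561 with DESeq2 and 493 with limma and library weights, which gave SNP50 replicate 1 the lowest weight, 0.363. With alternatives chosen after seeing the data it was 527 with DESeq2 and the length offset and 270 with DESeq2 without SNP50 replicate 1. With one library left out edgeR called 0 to 31 genes: 31 without SNP50 replicate 1, 4 without SNP50 replicate 2, 1 without SNP100 replicate 2 and 0 without each of the others. DESeq2 and the 12-library fit shared 440 genes, 78.4% of the former and 70.5% of the latter, all with the same sign. Both fits hold the same SNP50 and SNP100 libraries, so a shared sign was likely beforehand. The cause of these differences between tools was not tested.

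With a replicate block 0 genes were called, 2497 had an unadjusted p under 0.05 and the smallest adjusted p was 0.0801. With the block and the length offset together 0 were called. The replicate numbers did not pair the libraries: the correlation of same-numbered deviations was -0.167, -0.247 and -0.218, and no library correlated best with its own number.

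The distance between groups exceeded that within groups under every alternative run (0.542 to 4.01). The count of genes with an interval between -1 and 1 was 11408 to 11513. The slope of SNP50 replicate 1 was 0.27 to 0.32 with other definitions of length and other gene sets. Of the 97 named genes recomputed, Cd80 alone changed sign under any alternative. Many of the 97 were chosen for a small p or for groups that did not overlap, so a stable sign was likely beforehand. Genes of the shared nonporous list that are not among the 97 could change sign. With the length offset the log2 fold change of Atf3 went from 0.031 to -0.056 and that of C5ar1 from 0.024 to -0.057. Of 26 list medians, the cholesterol median kept its sign under every alternative. The medians of 11 lists, changed sign under at least 1 alternative: scavenger receptors, caveolar and clathrin uptake, lysosomal damage, NF-kB targets, interferon-stimulated genes, p53 targets, the unfolded protein response, NRF2 targets, immediate early genes, glycolysis and actin.

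Size and dose differ together, the distance test on 3 libraries in a group allows no exact p below 0.1, and single values of pseudogenes, gene copies and overlapping genes are uncertain.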
